A study of Sus scrofa with 32 samples.

Results

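C1QA, C1QB and C1QC encode the A, B and C chains of complement C1q. The deposited symbol file names 3 probe sets for these 3 genes, 1 for each chain, among 14327 probe sets that carry 8390 different symbols. The chains were chosen by the obese-versus-lean difference in the coronary artery, where earlier work on these data had found them high. That difference is therefore given as a description with no test, and so is every other difference of the chains between groups that uses the coronary arrays. Correlations were taken on deviations from group means, which that choice did not use. All 3 probe sets were among the 10029 kept for testing. The platform annotation gives the same symbol for the C1QA and C1QC probe sets and no symbol for the C1QB probe set, so the name C1QB rests on the authors' file.

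C1q is the recognition part of the first complement component. Its chains assemble into a bouquet with collagen-like stalks and globular heads, and the heads bind antibody complexes, C-reactive protein and dying cells. Bound C1q activates the proteases C1r and C1s, which cleave C4 and C2 to start the classical pathway. Unlike most complement proteins, which come largely from the liver, C1q is made mainly by macrophages and immature dendritic cells, and in tissues its transcripts are widely used as macrophage markers. In the pig assembly Sscrofa11.1, RefSeq's gene table places C1QA, C1QC and C1QB next to each other in that order, with 0 other protein-coding genes between them.

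The animals were 11 Ossabaw miniature pigs, aged 22 weeks and raised as a model of childhood obesity. The 5 obese pigs had eaten feed rich in fat, fructose corn syrup and cholesterol for 16 weeks, and the 6 lean pigs a commercial low fat feed for as long. From each pig, whole pieces of the left anterior descending coronary artery (LAD) and of the descending thoracic aorta (TA), both trimmed of fat and outer adventitia, and the fat around the LAD (PVAT) were hybridised to 1 Affymetrix porcine array per tissue. Lean pig 63 had no TA array, which gives 32 arrays: 5 obese and 6 lean for LAD, 5 obese and 6 lean for PVAT, and 5 obese and 5 lean for TA. Each value is a log2 signal of a whole tissue piece, so more cells of a type and more RNA per cell cannot be told apart. Fat RNA was extracted with another kit than arterial RNA, so kit and tissue cannot be told apart in any comparison of PVAT with an artery.

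Array medians lay between 8.32 and 8.56. The tissues carried their defining markers: the mean of 6 adipocyte markers was 10.18 to 12.03 in obese PVAT and 10.97 to 12.22 in lean PVAT, against 7.94 to 9.67 over both arteries and diets. The mean of 7 smooth muscle markers was 13.01 to 13.41 in LAD, 10.85 to 12.00 in PVAT and 11.83 to 12.88 in TA. The mean of 9 heart muscle markers ran from 7.70 to 12.04 in obese LAD and from 7.89 to 12.60 in lean LAD. In obese PVAT it was 9.53 to 12.71 with a median of 11.70, and in lean PVAT 6.58 to 12.55 with a median of 11.93. In TA of both diets it was 5.97 to 7.01. PVAT pieces thus differed from TA in heart muscle signal as well as in fat, and these cannot be told apart in comparisons of PVAT with TA. In TA the array of obese pig 57 lay far from the rest, with 817 tested probe sets more than 2 log2 units from the mean of the other TA arrays, against 3 to 19 for each other TA array, so diet results in TA are also given without it.

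In the coronary artery every obese pig had more signal for every C1q chain than any lean pig. The C1QA probe set read 9.18, 9.26, 9.86, 10.27 and 10.28 in obese LAD, against 7.85, 7.98, 8.03, 8.25, 8.43 and 8.45 in lean LAD. The C1QB probe set read 10.77, 11.17, 11.70, 11.82 and 12.38 in obese LAD, against 9.65, 9.70, 9.80, 10.02, 10.28 and 10.54 in lean LAD. The C1QC probe set read 10.59, 11.00, 11.69, 11.89 and 12.51 in obese LAD, against 9.46, 9.58, 9.69, 9.997, 10.10 and 10.29 in lean LAD. The groups did not overlap for any chain. Pigs 57 and 81 were the lowest of the obese pigs for all 3 chains, and pig 51 was the highest for C1QB and C1QC.

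The obese minus lean difference in LAD was 1.61 (SE 0.22) for C1QA, or 3.04-fold. It was 1.57 (SE 0.26) for C1QB, or 2.97-fold, and 1.68 (SE 0.30) for C1QC, or 3.21-fold, from 5 obese and 6 lean arrays. Complete separation with obese higher was seen for 3 of 3 chains and for 1.31% of all tested probe sets in LAD, and since this contrast chose the chains nothing is read from that count. The difference was positive within each of the 3 sacrifice dates. C1QA differed by 1.51, 2.30 and 1.43, C1QB by 1.62, 2.58 and 1.16, and C1QC by 1.67, 2.94 and 1.21 in order of date. The middle date held 1 obese and 1 lean pig.

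**Figure D1:**
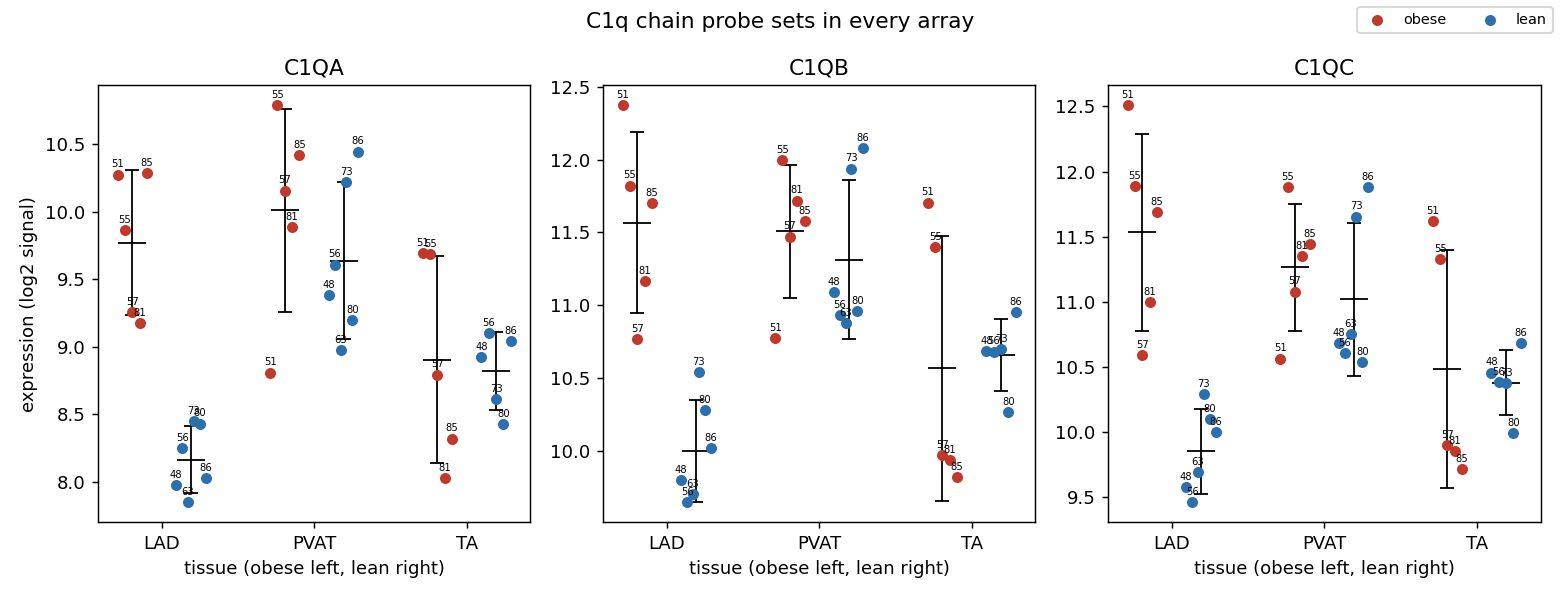
Deposited log2 signal of the C1QA, C1QB and C1QC probe sets in each array, by tissue, with obese pigs on the left and lean pigs on the right of each tissue. Points are arrays labelled with the pig number, and bars give the mean and SD of 5 or 6 arrays. The obese and lean points are fully separated in LAD and overlap in PVAT and TA.

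In the fat lying against that artery the diet groups overlapped for all 3 chains. C1QA read 8.81, 9.88, 10.15, 10.42 and 10.79 in obese PVAT, against 8.97, 9.19, 9.38, 9.61, 10.22 and 10.44 in lean PVAT. C1QB read 10.77, 11.47, 11.58, 11.72 and 12.00 in obese PVAT, against 10.88, 10.93, 10.96, 11.09, 11.94 and 12.08 in lean PVAT. C1QC read 10.56, 11.08, 11.35, 11.44 and 11.88 in obese PVAT, against 10.54, 10.60, 10.68, 10.75, 11.65 and 11.88 in lean PVAT. Pigs 73 and 86 were the 2 highest lean pigs for each chain, and obese pig 51 was the lowest of the obese pigs for each chain.

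None of the 3 chains passed the test in PVAT, by limma at an adjusted p under 0.05, where Benjamini-Hochberg adjustment ran over every probe set kept. The obese minus lean difference was 0.38 (SE 0.36, 95% interval -0.40 to 1.16) for C1QA. It was 0.19 (SE 0.28, interval -0.41 to 0.80) for C1QB and 0.24 (SE 0.30, interval -0.40 to 0.89) for C1QC, with limma adjusted p = 0.999 for each. Without adjustment 0 of 3 were under 0.05, beside 1.41% of probe sets higher and 0.798% lower in obese PVAT. With adjustment the share of all probe sets was 0%, and 0.160% had every obese above every lean array. Within the 3 dates the C1QA difference was 1.18, -0.57 and 0.20. When 1 pig was left out the difference ran from 0.18 to 0.68 for C1QA, from 0.07 to 0.38 for C1QB and from 0.09 to 0.42 for C1QC, lowest without pig 55 and highest without pig 51.

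In the aorta the obese pigs lay on both sides of the lean pigs. C1QA read 8.03, 8.32, 8.79, 9.69 and 9.69 in obese TA, against 8.43, 8.61, 8.92, 9.04 and 9.10 in lean TA. C1QB read 9.82, 9.94, 9.97, 11.40 and 11.70 in obese TA, against 10.26, 10.68, 10.68, 10.70 and 10.95 in lean TA. C1QC read 9.72, 9.85, 9.90, 11.33 and 11.62 in obese TA, against 9.99, 10.38, 10.38, 10.46 and 10.68 in lean TA. Obese pigs 51 and 55 were above every lean aorta for each chain, pigs 81 and 85 were below every lean aorta for each chain, and pig 57 was below them for C1QB and C1QC. The SD was 0.77, 0.91 and 0.91 in obese TA and 0.29, 0.25 and 0.25 in lean TA for C1QA, C1QB and C1QC.

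The mean diet difference in TA was accordingly near 0. It was 0.08 (SE 0.33, 95% interval -0.65 to 0.82) for C1QA, -0.09 (SE 0.38, interval -0.93 to 0.75) for C1QB and 0.10 (SE 0.38, interval -0.74 to 0.95) for C1QC. The limma adjusted p was 0.939, 0.943 and 0.935. Of the chains 0 of 3 passed with or without adjustment, beside 0% of all probe sets with adjustment and 3.66% higher and 3.52% lower without it, and 1.40% had every obese above every lean array. Without the array of pig 57 the differences were 0.11, 0.06 and 0.25, and 0 of 3 passed, beside 0.289% of probe sets. With arrays weighted by quality they were 0.64, 0.55 and 0.75, and 0 of 3 passed. Within the sacrifice dates C1QC differed by 0.23, 1.16 and -0.57 in TA, so its direction was not the same on each date.

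The same 2 aortas stood high for macrophage markers as a whole. The mean of 21 measured markers was 10.11 in TA of pig 51 and 10.08 in TA of pig 55, against 8.75, 8.86 and 8.96 in the other obese aortas and 8.89 to 9.23 in lean TA. The ratio of 28S to 18S ribosomal RNA, a measure of RNA integrity, was 1.28 and 1.29 in the aortas of pigs 51 and 55, and 2.14, 0.61 and 0.57 in those of pigs 57, 81 and 85. The part of either measure in the split of the obese aortas was not tested.

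**Figure D2:**
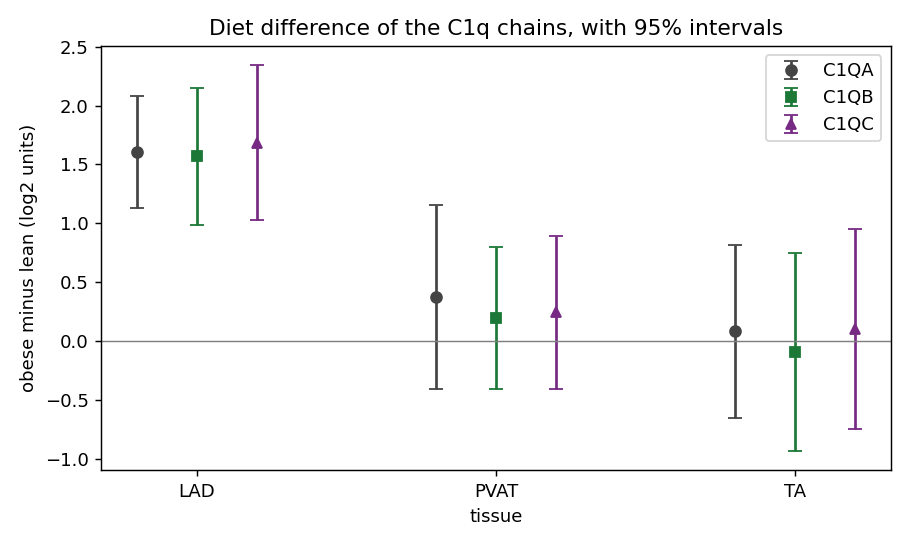
Obese minus lean difference in log2 units for C1QA, C1QB and C1QC in LAD, PVAT and TA, with limma 95% intervals as bars. Differences of 1.57 to 1.68 in LAD stand against 0.19 to 0.38 in PVAT and -0.09 to 0.10 in TA. The LAD values chose the genes and are a description.

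Set side by side over the 6 groups, the chains were lowest in the lean coronary artery. C1QA averaged 10.01 ± 0.75 in obese PVAT, 9.77 ± 0.53 in obese LAD, 9.64 ± 0.58 in lean PVAT, 8.90 ± 0.77 in obese TA, 8.82 ± 0.29 in lean TA and 8.16 ± 0.25 in lean LAD (SD, n = 5 for each obese group and lean TA, n = 6 for lean LAD and lean PVAT). C1QB averaged 11.57 ± 0.62 in obese LAD, 11.51 ± 0.46 in obese PVAT, 11.31 ± 0.54 in lean PVAT, 10.66 ± 0.25 in lean TA, 10.57 ± 0.91 in obese TA and 9.998 ± 0.35 in lean LAD. C1QC averaged 11.53 ± 0.76 in obese LAD, 11.26 ± 0.49 in obese PVAT, 11.02 ± 0.59 in lean PVAT, 10.48 ± 0.91 in obese TA, 10.38 ± 0.25 in lean TA and 9.85 ± 0.33 in lean LAD. Neighbours in each order overlapped in their ranges. Levels of different chains are not set against each other, since each comes from its own probes.

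Fat was also compared with aorta, where the levels come from other arrays than the coronary ones but the spread behind the test came from all 6 groups, LAD included. C1QA was higher in PVAT than in TA in obese pigs by 1.11 (SE 0.34), or 2.15-fold (limma adjusted p = 0.0110), and in lean pigs by 0.81 (SE 0.32), or 1.76-fold (limma adjusted p = 0.0379). C1QB was higher in PVAT in obese pigs by 0.94 (SE 0.34, limma adjusted p = 0.0283), while its difference of 0.66 (SE 0.32) in lean pigs did not pass (limma adjusted p = 0.0914). C1QC differed by 0.78 (SE 0.36) in obese pigs and 0.64 (SE 0.34) in lean pigs, and neither passed (limma adjusted p = 0.0857 and 0.122). The count was thus 2 of 3 in obese pigs, beside 17.8% of all probe sets higher and 19.7% lower in PVAT, and 1 of 3 in lean pigs, beside 21.0% higher and 28.1% lower. Groups were fully separated for 0 of 3 chains, beside 7.82% of probe sets in obese and 15.5% in lean pigs with every PVAT above every TA array. With pig as a fixed paired block, 3 of 3 passed in obese pigs and 2 of 3 in lean pigs, C1QB being the gain. With arrays weighted by quality the obese differences were 0.61, 0.24 and 0.02 for C1QA, C1QB and C1QC (limma adjusted p = 0.108, 0.520 and 0.956), so both obese calls were lost. In a fit of the PVAT and TA arrays alone, chosen after seeing the data, 2 of 3 passed in obese pigs (limma adjusted p = 0.0296 for C1QA and 0.0469 for C1QB) and 0 of 3 in lean pigs (limma adjusted p = 0.0711 for C1QA).

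The counts changed when single pigs were left out. The obese count was 0 without pig 81 or without pig 85, 1 without pig 57 and 3 without pig 51, and the lean count was 0 without pig 48, 56, 73, 80 or 86 and 2 without pig 51. The obese difference then ran from 0.86 to 1.61 for C1QA, 0.73 to 1.41 for C1QB and 0.54 to 1.24 for C1QC. The lean difference ran from 0.65 to 0.95 for C1QA, 0.54 to 0.74 for C1QB and 0.51 to 0.73 for C1QC. Without pig 48 or pig 56 the lean C1QA call was lost at a difference of 0.89, above the 0.81 with all pigs. Within pigs, PVAT exceeded TA for all 3 chains in 4 of 5 obese and 5 of 5 lean pigs. The exception was pig 51, whose PVAT was below its TA by 0.89 for C1QA, 0.93 for C1QB and 1.06 for C1QC. The diet difference itself did not differ between PVAT and TA at the threshold for any chain. The difference of differences was 0.29 (95% interval -0.67 to 1.25) for C1QA, 0.28 (interval -0.67 to 1.24) for C1QB and 0.14 (interval -0.87 to 1.16) for C1QC (limma adjusted p = 0.904, 0.907 and 0.961). Of the chains 0 of 3 passed, also without adjustment, beside 0% of all probe sets.

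The order of the arteries turned with diet. LAD minus TA was 0.87, 1.00 and 1.05 for C1QA, C1QB and C1QC in obese pigs and -0.66, -0.66 and -0.53 in lean pigs, given as values with no test. LAD was above TA in 5 of 5 obese pigs for each chain and in 1 of 5 lean pigs. PVAT minus LAD was 0.24, -0.06 and -0.27 in obese pigs and 1.47, 1.31 and 1.17 in lean pigs, and PVAT was above LAD in 6 of 6 lean pigs for each chain. The diet difference in LAD exceeded that in TA by 1.52 (SE 0.47), 1.66 (SE 0.47) and 1.58 (SE 0.50), and that in PVAT by 1.23 (SE 0.46), 1.37 (SE 0.46) and 1.44 (SE 0.49).

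**Figure D3:**
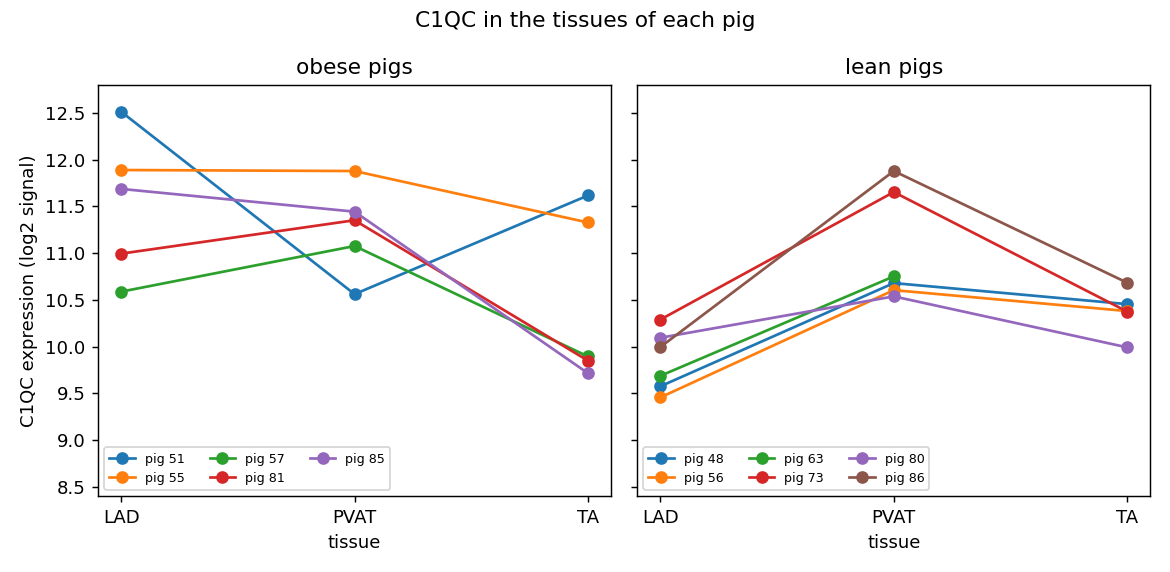
C1QC log2 signal in LAD, PVAT and TA of each pig, with obese pigs in the left panel and lean pigs in the right. Lines join arrays of 1 pig, and pig 63 has no TA array. All 6 lean pigs peak in PVAT, while obese pig 51 is highest in LAD at 12.51 and lowest in PVAT at 10.56.

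The 3 chains moved together from pig to pig. After the mean of each group was subtracted, Pearson's r between chains was 0.814 to 0.999 over the 9 pairs and tissues, and Spearman's rho 0.827 to 0.982 (permutation test, adjusted p = 0.000135 to 0.00696 over 27 relations). C1QB and C1QC had r = 0.982 in LAD, 0.976 in PVAT and 0.999 in TA, with 11, 11 and 10 pigs. Without the 2 pigs farthest from the median r was 0.668 to 0.998 over all 9 relations. Across the tissues of a pig no relation passed. r ran from -0.09 to 0.67 over 9 relations, with no permutation p under 0.0891 after adjustment. Without the 2 farthest pigs it ran from -0.21 to 0.56. The highest value with all pigs, for C1QC in LAD and TA, was then 0.34. C1QC in LAD and PVAT went the other way, from 0.10 to 0.56, so a few pigs moved these values. With the 28S to 18S ratio r was 0.13 to 0.40, and the lowest adjusted permutation p was 0.504. Without the 2 arrays farthest from the median it ran from -0.09 to 0.65. In TA it was then 0.65, 0.59 and 0.61 for C1QA, C1QB and C1QC, against 0.40, 0.17 and 0.18 with all 10 arrays.

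C1r, C1s and the C1 inhibitor act directly on or with C1q, and their genes showed no diet difference that passed. C1R, the protease that C1q activates first, averaged 12.48 ± 0.18 in obese LAD and 12.25 ± 0.19 in lean LAD, a difference of 0.22 (SE 0.11, limma adjusted p = 0.320). C1S, which C1r activates and which cleaves C4 and C2, averaged 12.63 ± 0.15 in obese LAD and 12.52 ± 0.18 in lean LAD. SERPING1, the inhibitor of both proteases, averaged 12.24 ± 0.14 in obese LAD and 12.23 ± 0.10 in lean LAD. In PVAT the 3 differences were 0.08 to 0.15, and in TA -0.21 to 0.15. None of the 3 genes was under 0.05 without adjustment in any tissue with all arrays. Without the TA array of pig 57 the aortic differences were 0.27 for C1R, 0.30 for C1S and 0.15 for SERPING1, against -0.01 for C1R and -0.21 for SERPING1 with it, and C1S was then under 0.05 without adjustment (limma adjusted p = 0.419). Between tissues C1S rose in PVAT relative to TA, by 0.66 in both obese (limma adjusted p = 0.00116) and lean pigs (limma adjusted p = 0.000462). SERPING1 rose in obese pigs by 0.59 (limma adjusted p = 0.0395), which gives 2 of 3 genes in obese and 1 of 3 in lean pigs, beside 17.8% and 21.0% of all probe sets.

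The wider complement system was fixed as 57 genes besides C1q, in lists chosen with earlier results known. Of these 25 were measured and 17 tested. In LAD 0 of 17 passed after limma adjustment, beside 0.0399% of all probe sets. Without adjustment 4 were higher, beside 5.49% of probe sets, and 1 was lower, beside 11.7%. The median difference was 0.13 over the 17 genes and -0.06 over all tested probe sets.

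The 4 higher genes had different roles. C4BPA, a chain of the inhibitor C4b-binding protein, ranged from 11.31 through a median of 11.73 to 12.78 in obese LAD, against 10.10, 10.59 and 10.88 in lean LAD, a difference of 1.40 without overlap (limma adjusted p = 0.0690). VSIG4, a complement receptor of resident macrophages, averaged 10.67 ± 1.00 in obese LAD and 8.85 ± 0.44 in lean LAD, a difference of 1.83 (limma adjusted p = 0.106). C4B, named C4A by the platform annotation, encodes the C4 that C1s cleaves and differed by 0.53 (limma adjusted p = 0.260). CD93, a receptor of endothelial and myeloid cells once studied as a C1q receptor, differed by 0.31 (limma adjusted p = 0.249). The lower gene was CFD, the adipocyte-rich factor D of the alternative pathway, at -0.49 (limma adjusted p = 0.259).

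In PVAT 0 of 17 were under 0.05 with or without adjustment, beside 0% and 1.41% of probe sets higher, and the median was 0.06, beside 0.00 over all probe sets. In TA 0 of 17 passed after adjustment, and 1 was higher without it, beside 0% and 3.66%, with a median of 0.15 beside -0.03 over all probe sets. Without the array of pig 57 the TA counts were 0 passing, beside 0.289%, and 2 higher without adjustment. The median was 0.23, beside -0.03 over all probe sets. The gene higher with all arrays was FCN2, a ficolin that starts the lectin pathway, at 1.17 (limma adjusted p = 0.623). C1QBP and CALR, which encode proteins that bind C1q, were under 0.05 without adjustment in none of the tissues.

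Between tissues, most tested complement genes stood higher in fat than in aorta. After limma adjustment 10 of 17 rose and 0 fell in PVAT relative to TA in obese pigs, and 9 rose and 1 fell in lean pigs, beside the shares of 17.8% and 21.0% higher given above. C7, a component of the membrane attack complex, rose by 3.73 in obese pigs (limma adjusted p = 3.11e-11) and 4.22 in lean pigs (limma adjusted p = 4.72e-13). Its aortic signal was low, at 5.29 to 6.48 in obese and 5.00 to 5.96 in lean TA. All of these lie below the 6.64 that each deposited probe set reaches on 11 or more arrays, so the size of the C7 difference is uncertain. FCN2 rose by 3.22 in obese and 4.43 in lean pigs, and CFD by 2.35 in obese and 2.87 in lean pigs. The gene that fell in lean pigs was CLU, clusterin, at -0.71 (limma adjusted p = 0.0101).

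C1q gives its name to a globular domain shared by secreted relatives. Of 20 listed relatives 8 were measured and tested, and 0 passed a diet contrast after adjustment in any tissue, beside 0.0399% of probe sets in LAD, 0% in PVAT and 0% in TA. Without adjustment C1QTNF5 was higher in obese LAD by 0.57 (limma adjusted p = 0.235) and in obese TA by 0.51 (limma adjusted p = 0.671), or 0.69 without the array of pig 57 (limma adjusted p = 0.109). EMILIN1, an elastic fibre glycoprotein, was lower in obese PVAT by the same measure, at -0.32 (limma adjusted p = 0.999). Over the 8 relatives the median TA difference was -0.05, and 0.15 without the array of pig 57. Without adjustment 1 of 8 was thus higher in LAD and in TA, beside 5.49% and 3.66%, and 1 of 8 lower in PVAT, beside 0.798%. ADIPOQ, adiponectin, differed by 0.16 in LAD, 0.00 in PVAT and -0.10 in TA, and none of these was under 0.05 without adjustment. Its probe set averaged 10.85 in PVAT of either diet, against 10.50 in obese and 10.59 in lean TA. FABP4, another adipocyte marker, averaged 13.07 in obese and 13.26 in lean PVAT, against 9.99 in obese and 10.58 in lean TA. The ADIPOQ probe set thus barely set fat apart from aorta, and nothing about adiponectin is read from it.

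Macrophage markers moved with the C1q chains in LAD. Of 32 listed markers 21 were measured and 18 tested. The list was chosen with earlier results of these data known, so its counts in LAD are a description. In LAD 17 of 18 had a positive difference, beside 34.3% of all probe sets, and 16 were under 0.05 without adjustment, beside 5.49% of all probe sets, and 13 without overlap, beside 1.31%. After adjustment 1 passed, SPP1 or osteopontin, which rose by 2.30 (limma adjusted p = 0.0482). No probe set of any gene passed in LAD without pig 48, 51, 55, 63, 73, 80, 85 or 86. The median difference was 1.20 over the 18 markers. FCER1G and TYROBP, signalling adaptors of myeloid receptors, differed by 2.02 (limma adjusted p = 0.102) and 1.66 (limma adjusted p = 0.128), and CYBB, the phagocyte oxidase subunit, by 1.99 (limma adjusted p = 0.102). STAB1 and FOLR2, which mark resident macrophages, differed by 0.10 and -0.22. VSIG4, the receptor of resident macrophages named above, is on the same list and averaged 10.67 in obese LAD and 8.85 in lean LAD. Markers of resident macrophages thus did not move alike.

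The mean of the 21 measured markers was 9.43 to 10.78 in obese LAD and 8.76 to 9.18 in lean LAD, 9.45 to 10.16 in obese PVAT and 9.36 to 10.07 in lean PVAT. In TA it was 8.75 to 10.11 in obese and 8.89 to 9.23 in lean pigs. No marker of the list was at 0 in the deposited table. In PVAT 17 of 18 had a positive difference, beside 50.2% of all probe sets, and the median was 0.11. Of these markers 0 of 18 were under 0.05 with or without adjustment in PVAT, beside 0% and 1.41%. In TA 12 of 18 were positive, beside 44.6%, with a median of 0.30. There 0 of 18 passed after adjustment and 4 were higher without it, LAPTM5, CD74 and SPP1 among them, beside 0% and 3.66%. Without the array of pig 57 the TA counts were 16 positive, beside 43.3%, 0 passing, beside 0.289%, and 4 higher without adjustment. The median was 0.37.

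Markers of the other cell types in LAD moved as follows. Over all tested probe sets 34.3% were positive, with a median of -0.06. Without adjustment 5.49% of them were higher and 11.7% lower. Of 9 endothelial markers 9 had a positive difference, 3 of them under 0.05 without adjustment, with a median of 0.20. Of 7 smooth muscle markers 0 were positive and 3 were lower without adjustment, with a median of -0.17. Of 9 heart muscle markers 6 were positive and 0 were under 0.05 without adjustment, with a median of 1.18. Of 5 adipocyte markers 3 were positive and 1 was lower without adjustment, with a median of 0.09. Of 9 fibroblast markers 1 was positive and 0 were under 0.05 without adjustment, with a median of -0.17. The part of these markers and of the macrophage markers in the C1q difference was not tested. Of the markers of other white blood cells, 0 of 9 for neutrophils, 2 of 15 for T and B cells, 1 of 6 for mast cells and 3 of 9 for dendritic cells were measured.

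**Figure D4:**
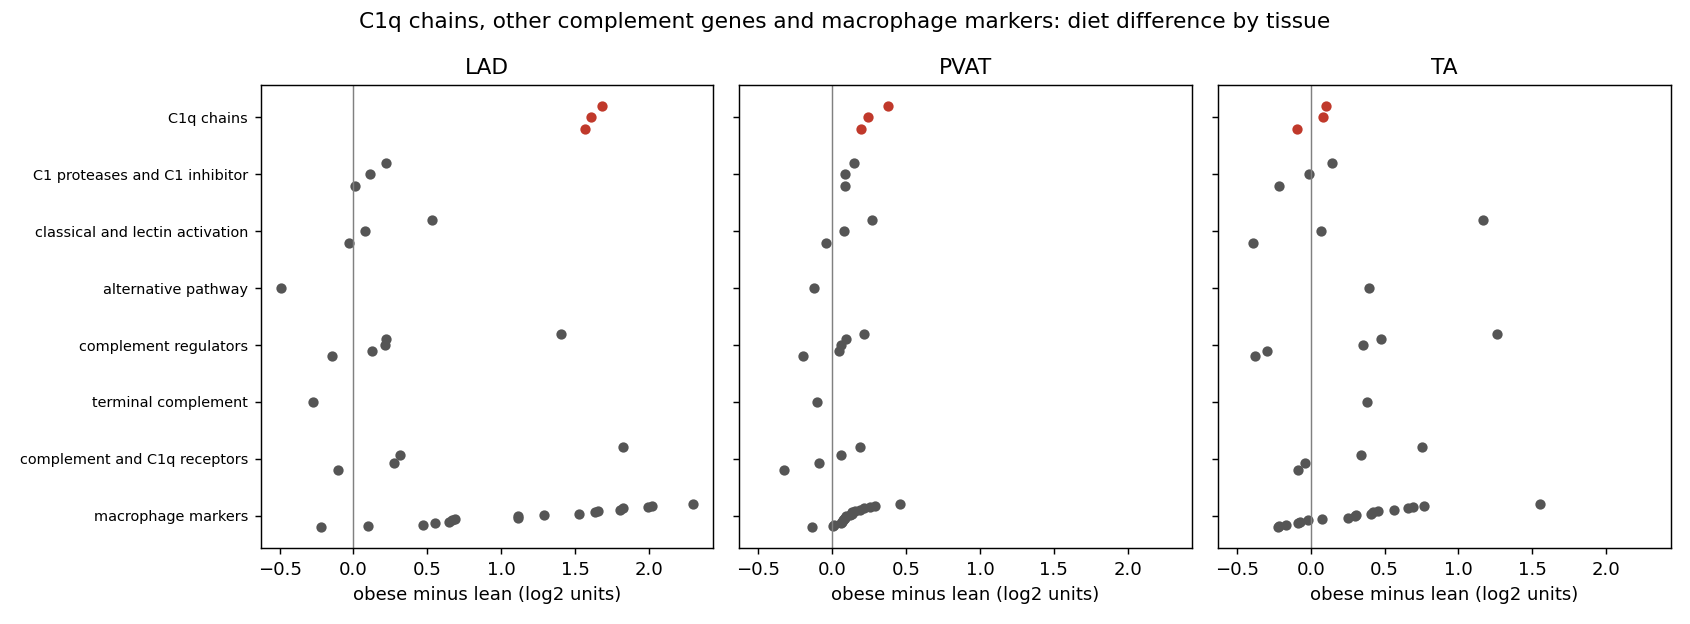
Obese minus lean difference in log2 units for the C1q chains, 6 lists of other complement genes and the macrophage markers, in LAD, PVAT and TA. Each point is 1 tested gene, and red points are the C1q chains. In LAD the chains lie among the macrophage markers, whose median is 1.20, and above the C1 proteases and C1 inhibitor at 0.01 to 0.22.

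Genes that tracked the chains over all arrays were ranked by Pearson's r with the mean of the C1q probe sets, after the mean of each of the 6 groups was subtracted, over 32 arrays from 11 pigs. Arrays of 1 pig are not independent, and the ranking is a description. Among the 10 nearest symbols were VSIG4 (r = 0.915), FCGR2C (0.909, named FCGR2B by the platform annotation), LY86 (0.905), FCER1G (0.894), ADORA3 (0.887, a probe set that the platform annotation shares with TMIGD3), FCGR3A (0.881), RNASET2 (0.875), MILR1 (0.874) and CTSS (0.873). FCGR3A encodes an Fc receptor, and CTSS a lysosomal protease of antigen-presenting cells. For VSIG4 and CTSS these are other probe sets than the ones used in the lists, whose r was 0.869 and 0.860. The lowest r in a single tissue among these 9 was 0.763, for ADORA3 in PVAT.

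Over the 21 macrophage markers the median r was 0.778, beside 0.094 over all 14327 probe sets. SPP1, the marker with the largest LAD difference, had r = 0.494, STAB1 had 0.393 and FOLR2 had 0.097. CD14, a monocyte and macrophage receptor whose signal averaged 7.14 ± 0.53 in obese LAD and 6.73 ± 0.25 in lean LAD, had r = 0.853.

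**Figure D5:**
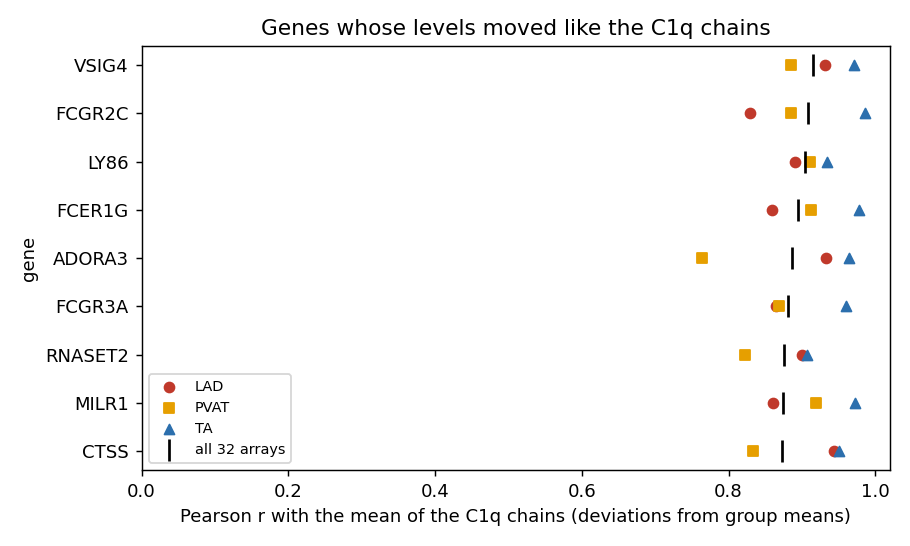
Pearson's r with the mean of the 3 C1q probe sets for 9 of the 10 genes most like them, from deviations from group means. Symbols give r within LAD, PVAT and TA and the vertical bar r over all 32 arrays. The values over all arrays run from 0.873 to 0.915.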

How the data were processed

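RNA of 3 tissues from 5 obese and 6 lean pigs was measured on 32 arrays. The deposited table holds log2 signals that the authors summarised per probe set using affy, according to the submitters' processing notes. Its version, the background correction and the normalization are not given in the sources used here. Each of the 14327 deposited probe sets reaches an intensity of 100 on 11 or more arrays, so weakly expressed genes cannot be examined. Symbols are the authors' human symbols. Replicates are separate animals, and their number limits the precision.

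Probe sets in the lowest 30% by mean signal were left out. Diet was compared within each tissue, and tissues and differences of differences in 1 fit of 6 groups, by lmFit and eBayes of limma 3.58.1, run in R 4.3.3 (two-sided, Benjamini-Hochberg over 10029 probe sets). The code was tested on simulated data. Correlations used 100000 permutations. The members, gene lists and tests were chosen with earlier results of these data known. Named genes are the chains, complement list members whose role is described, and the 10 symbols most like the chains, some of which, with some list members, are not reported here. For a listed gene with several probe sets, the one with the highest mean was used, and the ranking of like genes took each symbol's probe set with the highest r. Arrays were paired by animal: over 31 same-pig pairs, deviations from group means correlated at -0.20 to 0.50, median 0.24. Alternatives covered filter, normalization, array weights, date, 28S to 18S ratio, pig block, annotation, left-out pigs and, added after seeing the data, PVAT and TA arrays alone. No sequence is shown.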

Additional observations from a re-analysis of the deposited data

How the results depend on the processing

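The C1q difference in LAD kept its direction under all 19 alternatives, with a median over the chains of 1.44 to 1.77. In PVAT, in TA and for the difference of differences, 0 of 3 chains passed under every alternative run. For PVAT minus TA in lean pigs 1 chain passed, 2 with pig as a fixed paired block, 0 in a fit of the PVAT and TA arrays alone, and 0 to 2 when 1 pig was left out. In obese pigs 2 passed, 0 with array weights, 1 without the TA array of pig 57, 1 by the platform annotation, which does not name C1QB, and 0 to 3 when 1 pig was left out. The pig block by duplicateCorrelation changed none of these calls. The sign turned only for differences that did not pass. In TA the C1QA difference of 0.08 was -0.061 with sacrifice date as a term and -0.11 to 0.30 with 1 pig left out. The C1QB difference of -0.09 was 0.55 with array weights and -0.37 to 0.10 with 1 pig left out, including 0.06 without pig 57, and C1QC ran from -0.18 to 0.30. With array weights the difference of differences was -0.063 for C1QA, -0.27 for C1QB and -0.50 for C1QC. For C1QC it was -0.01 without the TA array of pig 57 and -0.10 to 0.60 with 1 pig left out. The cause was not tested. Over all genes the number of probe sets passing moved with the setting, from 0 to 116 in LAD against 4 as reported, from 0 to 2 in PVAT against 0, from 0 to 547 in TA against 0, and from 0 to 10 for the difference of differences against 0. Low signals have no detection call, and few pigs leave wide intervals.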

Other observations

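The gap between the C1QB and C1QC signals within an array was smaller in every obese than in every lean aorta. It was 0.084 ± 0.012 in obese TA (n = 5) and 0.278 ± 0.035 in lean TA (SD, n = 5). The size of such a gap depends on the probes, so only its change between groups is read. In LAD the gap was 0.03 ± 0.14 in obese and 0.15 ± 0.10 in lean pigs, and in PVAT 0.24 ± 0.13 in obese and 0.29 ± 0.12 in lean pigs. In TA the C1QA minus C1QB gap was -1.66 ± 0.33 in obese and -1.83 ± 0.19 in lean pigs. The C1QA minus C1QC gap was -1.58 ± 0.33 in obese and -1.56 ± 0.18 in lean TA. Every gap other than C1QB minus C1QC in TA overlapped between the diets, in each tissue. The pattern was picked from the gaps of all chain pairs in each tissue after the values were seen, so it is given with no test.

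ITGB2, the shared chain of the complement receptors CR3 and CR4, was below the filter on low signal and is given as values. It read 7.17 to 10.18 in obese LAD and 6.39 to 6.65 in lean LAD, without overlap, 6.93 to 7.51 in obese PVAT and 6.82 to 7.49 in lean PVAT. In TA it read 6.47 to 8.62 in obese and 6.22 to 6.78 in lean pigs. ITGB2 was chosen after its values were seen. In LAD 1.31% of all tested probe sets, which do not include ITGB2, had every obese above every lean array. The lean LAD median of ITGB2 was 6.50, below the 6.64 that each deposited probe set reaches on 11 or more arrays. Nothing is therefore read from the lack of overlap.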
